A study of Mus musculus with 7 samples.

Results

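Sites that gave high reporter output with the promoter labelled pR-Ea, and not with SCP1 or pPGK, made up 973 of the 30946 sites that could be scored, or 3.14%. The assay was a capture-based self-transcribing reporter assay (CapStarr-seq) of DNase hypersensitive sites in P5424, a mouse cell line of immature T cells. Reporter RNA libraries were made with pR-Ea, with SCP1 (super core promoter 1, a synthetic core promoter) and with pPGK (the phosphoglycerate kinase promoter). A further pPGK library is labelled PMA_I, for the phorbol ester PMA and the calcium ionophore ionomycin, and there are 3 inputs. Because the treatment field lists both agents for all 7 samples, only the title PMA_I tells which library was stimulated. All libraries come from the same cell line, and the labels do not give the makeup of pR-Ea. Each group is 1 library, so differences below are between these libraries, with no replicate check and no p-value.

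In this assay a genomic fragment is cloned into the transcribed part of a reporter plasmid. A fragment that acts as an enhancer raises the copies of its own transcript, and one that dampens the promoter lowers them. The same element can act differently on different promoters, a property known as enhancer-promoter compatibility. DNase hypersensitive sites are stretches of open chromatin, where most enhancers, promoters and silencers of a cell type lie.

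The genome (build mm9) was divided into bins of 500 bp, and each 315 bp fragment was assigned by its midpoint. A bin was kept if it held at least 50 input reads with each of the 3 promoters. Activity is the log2 ratio of reporter to input reads, each scaled to its total over kept bins. It is therefore relative to the average of these sites, since no neutral insert was used. A site was chosen if its activity was at least 0.7 with pR-Ea, 1.62-fold above that average, and below 0.5 with SCP1 and with pPGK. These values chose the sites, so they are given as a description. Of all kept bins, 6.14% had an activity of at least 0.7 with pR-Ea, 8.79% with SCP1 and 12.1% with pPGK. Kept bins contained 29883342 reporter reads and 11031471 input reads of pR-Ea, 35631136 and 28110981 for SCP1, 31440889 and 14624966 for pPGK PMA_I, and 27336124 and 11460124 for pPGK.

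Activity with pR-Ea ranged between 0.70 and 1.93 over the 973 sites, with a median of 0.82. Most were only modestly above the level that chose them. There were 437 sites, 44.9%, below 0.8, and 128 reached 1, a doubling over the average site. Of all 30946 kept bins, 251 reached 1 with pR-Ea. The same sites had a median activity of -0.05 with SCP1 and 0.09 with pPGK, both close to the average site. The label of high output with pR-Ea alone is a matter of degree. The gap between pR-Ea and the higher of the other promoters had a median of 0.67 and ranged between 0.22 and 3.09. It was below 0.5 at 260 sites and at least 1 at 192. An activity of -1 or less was seen at 67 sites with SCP1 (6.89%), against 15.0% of all kept bins, and at 24 sites with pPGK (2.47%), against 9.72%. In the other 21053 bins below 0.5 with SCP1 and pPGK these shares were 20.9% and 14.0%. The rule used the values of all 3 promoters, so the shares are a description.

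**Figure D1:**
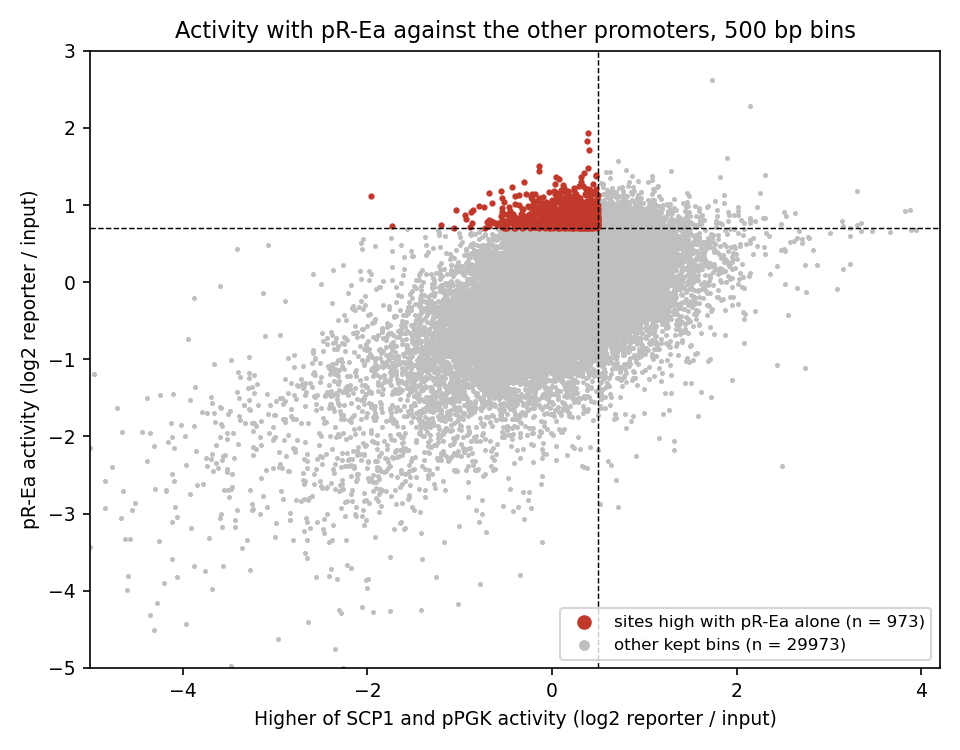
Activity with pR-Ea (vertical axis, log2 reporter over input) against the higher of SCP1 and pPGK activity (horizontal axis, same unit) for each 500 bp bin. The 973 chosen sites (red) lie above 0.7 and left of 0.5 (dashed lines), 44.9% of them below 0.8. 28 of the 30946 bins lie outside the axes, none of them a chosen site.

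Intervals of the promoters were apart at more sites when taken over reads than over distinct fragment positions. With exact (Clopper-Pearson) 95% intervals over reads, the pR-Ea interval lay above those of SCP1 and pPGK at 741 sites (76.2%), against 13.9% of all kept bins. With an interval of 1.96 standard errors (SE) over distinct fragment positions it did so at 334 sites (34.3%), against 5.34% of all kept bins. The rule used these values, so nothing is read from the difference. Intervals over reads cover counting error only and are too narrow, since PCR copies are not independent molecules. Those over positions treat positions as independent. If both ends of a molecule were read with pR-Ea and SCP1, they would be too narrow there as well, which was not tested.

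The share of deeper sites that stood apart was larger. Chosen sites made up 3.70% of bins with 50 to 100 pR-Ea input reads, 2.53% of those with 200 to 500 and 3.73% of those with 1000 or more, so they were not limited to shallow bins. The intervals over positions were apart at 14.5% of the 275 sites in the shallowest class and at 84.6% of the 78 sites in the deepest. These shares were not computed over all kept bins of the same depth, and the rule used the values. Nothing about the chosen sites is therefore read from the rise with depth. The highest activities were in shallow bins. The highest of all was chr17:6005501-6006000, named after its value was seen, with 1278 reporter and 123 input reads with pR-Ea and an activity of 1.93 (SE 0.23). That site had 0.39 (SE 0.30) with SCP1 and -0.48 (SE 0.39) with pPGK. The highest activity among sites with at least 1000 input reads was 1.13.

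The reads behind the ratio are given next as a description, since the rule used them. Per site, the share of pR-Ea reporter reads was above both other reporter shares at 664 of the 973 sites (68.2%), against 30.9% of all kept bins. The share of pR-Ea input reads was below both other input shares at 312 sites (32.1%), against 21.2% of all kept bins. Both held at 143 sites (14.7%), against 1.94% of all kept bins. Neither held at 140 sites, against 15429 of the 30946 kept bins. At the median site the pR-Ea reporter share was 0.79 above the mean of the other promoters on the log2 scale, and its input share minus that mean was -0.12, so lower. Over all kept bins the medians of these differences were 0.09 for the reporter and 0.06 for the input, both higher with pR-Ea. The median site had 842 reporter and 168 input reads with pR-Ea, on 69 and 42 positions, against 486.5 and 189 reads on 70 and 55 positions at the median kept bin. The part of low input counts in the choice of sites was not tested.

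The gap was largest at chr7:53652001-53652500, called site 1 here. It led the 8 sites with the largest gap among the 315 that had at least 200 input reads with each promoter. Site 1 had 4667 reporter and 790 input reads with pR-Ea, an activity of 1.12 (SE 0.07, 95% counting interval 1.02 to 1.24). With SCP1 it had 720 and 2216 reads, an activity of -1.96 (SE 0.25), and with pPGK 423 and 755 reads, an activity of -2.09 (SE 0.32). It was thus above the average site with pR-Ea and the lowest of these 8 sites with both other promoters. In pPGK PMA_I its activity was -1.86 (SE 0.21). The rule did not use the reporter count of that library, but its input is that of pPGK, which the rule used. Its pR-Ea reporter reads lay on 225 positions, the largest of which held 3.54% of them. By strand the values were 1.14 on the plus and 1.12 on the minus strand with pR-Ea, -1.75 and -2.20 with SCP1, and -1.81 and -3.19 with pPGK.

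The bin next to site 1, chr7:53651501-53652000, was also a chosen site but had a different profile. Its activity was 1.03 (SE 0.10) with pR-Ea, -0.06 (SE 0.21) with SCP1 and -0.11 (SE 0.37) with pPGK. Output with pR-Ea was therefore alike over these 1000 bp, while the low output with SCP1 and pPGK was in 1 of the 2 bins.

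Site 2, chr9:40772001-40772500, held 1695 reporter and 279 input reads with pR-Ea, an activity of 1.16 (SE 0.10). It had -0.80 (SE 0.22) with SCP1, -0.34 (SE 0.16) in pPGK PMA_I and -0.68 (SE 0.28) with pPGK. Site 3, chr15:77950001-77950500, was the deepest of the 8, with 6543 reporter and 1480 input reads and an activity of 0.71 (SE 0.06) with pR-Ea. Both other promoters put it below the average site, with -1.06 (SE 0.21) with SCP1 and -1.06 (SE 0.23) with pPGK, and pPGK PMA_I gave -1.03 (SE 0.25). Its neighbour chr15:77949501-77950000 was not a chosen site, with 0.43 (SE 0.10) with pR-Ea, 0.22 (SE 0.18) with SCP1 and 0.21 (SE 0.18) with pPGK. As at site 1, the low output with SCP1 and pPGK did not extend into the next bin.

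Site 4, chr2:180511001-180511500, had 0.76 (SE 0.12) with pR-Ea, -1.04 (SE 0.19) with SCP1 and -0.86 (SE 0.24) with pPGK. Site 5, chr14:40286001-40286500, had 0.96 (SE 0.06) with pR-Ea and 3950 reporter reads on 201 positions, against -1.46 (SE 0.26) with SCP1 and -0.55 (SE 0.18) with pPGK. Here the neighbour went the same way: chr14:40286501-40287000 had 0.68 (SE 0.11) with pR-Ea, just under the level for choice, -1.43 (SE 0.31) with SCP1 and -1.24 (SE 0.23) with pPGK. Site 6, chr9:57908501-57909000, rested on fewer fragments with pPGK, where its activity of -0.69 had an SE of 0.68. It had 0.81 (SE 0.14) with pR-Ea and -0.81 (SE 0.36) with SCP1. Sites 7 and 8, chr4:33276001-33276500 and chr12:33832001-33832500, had 0.73 (SE 0.16) and 0.75 (SE 0.09) with pR-Ea. Both were below the average site with SCP1, at -0.68 (SE 0.24) and -0.85 (SE 0.23), and with pPGK, at -0.96 (SE 0.27) and -0.60 (SE 0.26). With distinct positions in place of reads, the gaps of sites 1 to 8 were 1.03, 0.45, 0.49, 0.58, 0.04, 1.10, 0.40 and 0.15. Over reads these gaps ran between 1.35 and 3.09, so all were smaller with positions, and the cause was not tested.

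**Figure D2:**
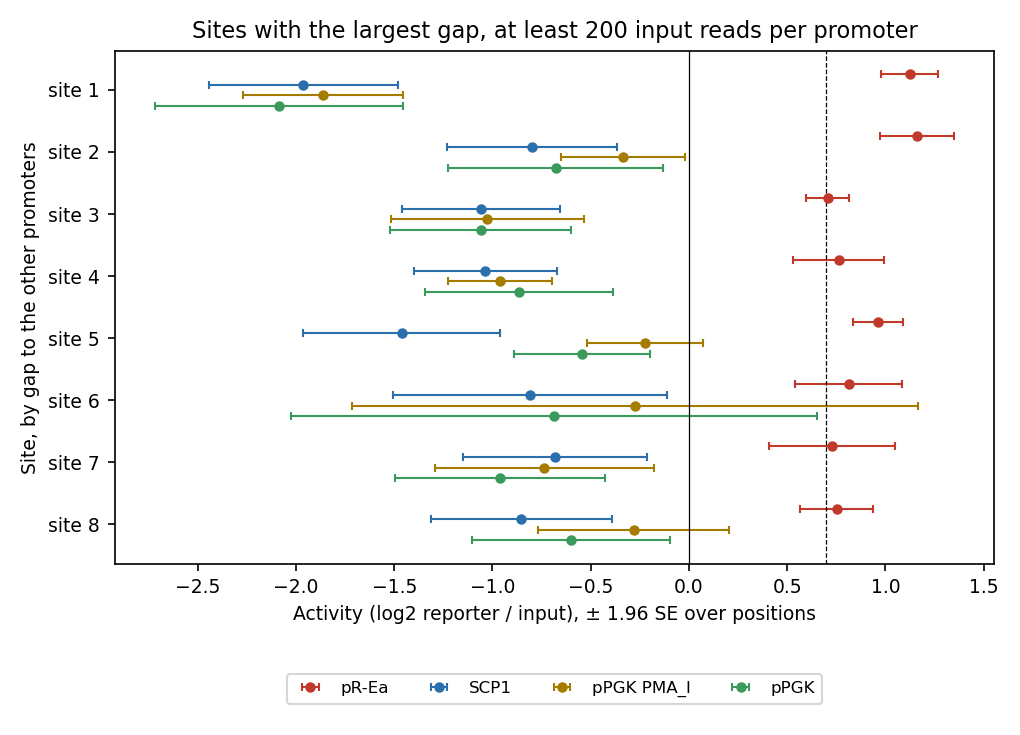
Activity (horizontal axis, log2 reporter over input, bars of 1.96 SE over positions) of sites 1 to 8 with pR-Ea, SCP1, pPGK PMA_I and pPGK. All 8 sites lie above 0.7 (dashed line) with pR-Ea and below 0 with the other libraries, and bars cross at site 6, where pPGK has an SE of 0.68.

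The most deeply covered sites had small gaps. The 5 sites with the most pR-Ea input reads had gaps of 0.25 to 0.62. The first, chrX:6952501-6953000, had 28658 reporter and 6113 input reads with pR-Ea, an activity of 0.79 (SE 0.03). It had 20890 and 14660 reads with SCP1, an activity of 0.17 (SE 0.06), and 13847 and 6177 with pPGK, an activity of -0.09 (SE 0.08). Next was chr5:113303001-113303500, at 0.84 (SE 0.03) with pR-Ea, 0.22 (SE 0.06) with SCP1 and 0.39 (SE 0.10) with pPGK. In pPGK PMA_I it was at 0.72 (SE 0.08), so with the stimulus label it also passed 0.7 with pPGK. The other 3 were chr4:106584501-106585000, chr13:58228501-58229000 and chr10:42894001-42894500. They had 0.72 (SE 0.03), 0.74 (SE 0.04) and 0.79 (SE 0.03) with pR-Ea. With SCP1 they had 0.25 (SE 0.08), 0.49 (SE 0.07) and 0.50 (SE 0.07), so the last pair was just under the limit of 0.5. With distinct positions counted in place of reads, the gaps of all 5 sites were negative, between -0.31 and -0.14. A position counts once however many reads it holds, and at the first site the pR-Ea reads lay on 693 reporter and 630 input positions. At such depth a ratio of positions may not follow a ratio of reads, and the cause of the sign change was not tested.

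On the threshold itself, the sites just inside were chr4:117181001-117181500, with 536 reporter and 121 input reads, and chr15:84276501-84277000, with 1060 and 240. The bins just outside were chr17:24343501-24344000, with 769 and 174, and chr5:100928501-100929000, with 417 and 94. All 4 had a pR-Ea activity of 0.70, with an SE of 0.12 to 0.24, far wider than their distance to the threshold.

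The pPGK PMA_I library offers a reporter count that the rule did not use, although its input is that of pPGK. The score filter acted differently in these files. It left 48137015 of 72217277 pPGK reporter reads and all 61707100 of pPGK PMA_I. Of the same 30248710 input reads it left 21682293 in the pPGK PMA_I file and 17807985 in the pPGK file. Medians with the same positions used in every file are given beside the difference between these libraries. Of the 973 sites, 130 (13.4%) had an activity of at least 0.7 in it, against 27.5% of all kept bins. That comparison is shaped by the rule, which kept sites low with pPGK. Among the other 21053 bins below 0.5 with SCP1 and pPGK the share was 12.2%, near that of the chosen sites. The median activity of the chosen sites in pPGK PMA_I was 0.23, against 0.28 over all kept bins and 0.04 in those other low bins. The chosen sites were also higher than those low bins with SCP1 (-0.05 against -0.39) and with pPGK (0.09 against -0.16), which the rule used.

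The difference between pPGK PMA_I and pPGK had a median of 0.22 over the chosen sites, against 0.27 over all kept bins and 0.28 in the other low bins. A difference of at least 1 was seen at 17 sites (1.75%), against 2.80% of all kept bins, and one of -1 or less at 1 site (0.103%), against 0.976%. The median difference was near that of all kept bins. The rule kept only sites below 0.5 with pPGK, so these values are shaped by the choice and are a description. The sign of this median depended on the mapping quality filter. Where a position was used only if no file listed it with a mapping quality score under 30, the medians were -0.03 over chosen sites and 0.05 over kept bins.

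The highest activity in pPGK PMA_I was at chr8:126995001-126995500, with 546 reporter and 93 input reads, an activity of 1.44 (SE 0.14). This site had 0.99 (SE 0.29) with pR-Ea, -0.14 (SE 0.47) with SCP1 and 0.28 (SE 0.19) with pPGK. The next were chr10:80268501-80269000 at 1.41 (SE 0.16), chr5:120575501-120576000 at 1.39 (SE 0.11) and chr10:18425501-18426000 at 1.37 (SE 0.14). They had 0.28 (SE 0.18), 0.39 (SE 0.08) and 0.48 (SE 0.20) with pPGK. The value of 0.39, on chromosome 5, rested on 3 reporter and 2 input positions, with 96.6% of its reporter reads on 1. Its counting interval was -0.035 to 0.87, so the SE of 0.08 is too small. The site on chromosome 5 had its pPGK PMA_I reads on 2 positions, 1 of which held 98.1% of them, so it amounts to a single fragment. The site on chromosome 8 and chr10:80268501-80269000 had theirs on 13 and 12 positions, with 40.8% and 28.2% on the largest. At chr10:18425501-18426000 they lay on 84 positions, with 15.7% on the largest.

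At the low end in pPGK PMA_I were chr8:27046501-27047000 at -2.33 (SE 0.75), site 1, chr7:80702501-80703000 at -1.69 (SE 0.31) and chr6:85461501-85462000 at -1.65 (SE 0.20). In all, 14 chosen sites (1.44%) were at -1 or less in pPGK PMA_I, against 7.70% of all kept bins. Apart from site 1 the named low sites rested on 45 to 52 reporter reads in that library, on 4 to 10 positions. With pR-Ea they had 0.94 (SE 0.27), 0.71 (SE 0.19) and 0.75 (SE 0.16), and with pPGK -0.86, -1.71 (SE 0.26) and -2.19 (SE 0.62). The first of these pPGK values rested on 66 reporter reads on 4 positions and 50 input reads on 2, with a counting interval of -1.41 to -0.29.

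**Figure D3:**
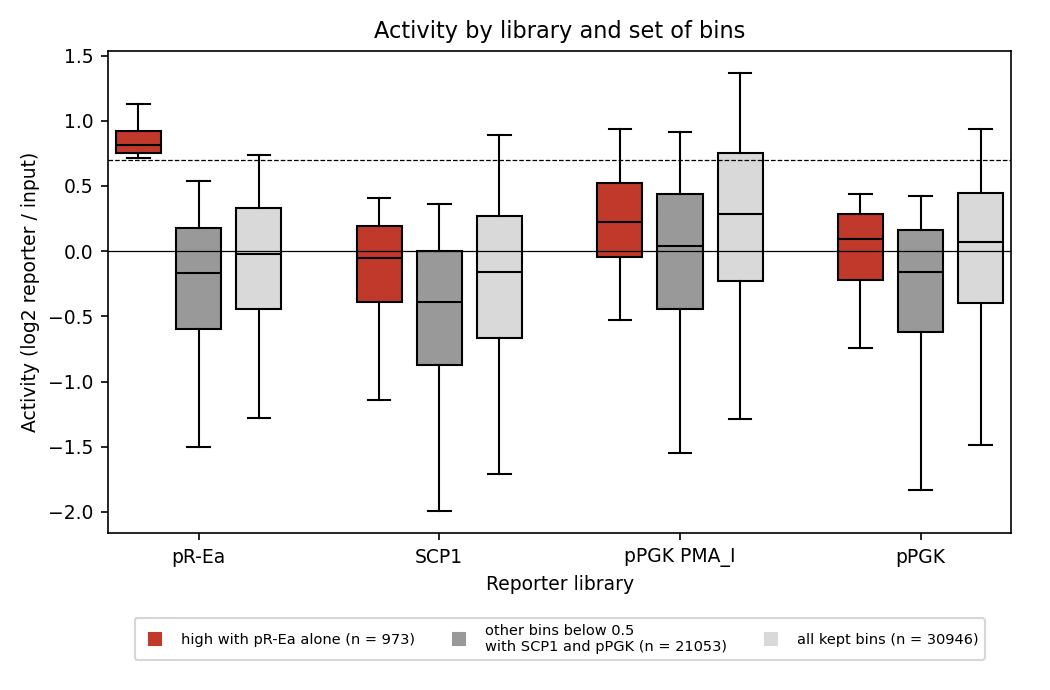
Activity (vertical axis, log2 reporter over input) by library for the 973 chosen sites (red), the other 21053 bins below 0.5 with SCP1 and pPGK (dark grey) and all 30946 kept bins (light grey). Boxes are quartiles with the median, and whiskers run between the 5th and 95th percentiles. The dashed line marks 0.7. In pPGK PMA_I the chosen sites have a median of 0.23, against 0.04 in the other low bins and 0.28 in all kept bins.

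Bins next to a chosen site were looked at as well. Their reads did not choose that site, but this is not an independent view. Neighbours that were chosen themselves are left out, while none is left out of the comparison with all kept bins. Fragments of adjoining bins also overlap. There were 545 kept bins that adjoined a chosen site and were not chosen themselves. Their median activity with pR-Ea was 0.36, and 407 of them (74.7%) were above 0. Over the 16356 kept bins that adjoin any kept bin, the median was -0.01 and 49.4% were above 0. With SCP1 the neighbours' median was -0.06, against -0.14 for all such bins. It was 0.14 in pPGK PMA_I, against 0.14, and 0.01 with pPGK, against 0.01. Kept bins that adjoin one of the other bins below 0.5 with SCP1 and pPGK had lower medians in every library, at -0.13 with pR-Ea, -0.31 with SCP1, 0.01 in pPGK PMA_I and -0.13 with pPGK. Of the 545 neighbours, 49 (8.99%) had at least 0.7 with pR-Ea, against 6.51% of kept bins that adjoin any kept bin. A neighbour high with pR-Ea counts here only if it was too high with another promoter to be chosen itself.

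This extension was short. At 1000 bp from a chosen site, 175 kept bins had a median of 0.04 with pR-Ea, against 0.09 for all kept bins with a kept bin at that distance. At 1500 bp the 70 bins had 0.09, against 0.06, and at 2000 bp the 46 bins had -0.0048, against 0.02. Fragments of adjoining bins overlap, and if both ends of a molecule were read, 1 molecule could count in both bins. This was not tested. Beyond 1 bin 315 bp fragments do not overlap those of the site. The distances past 500 bp were looked at after the first result was known.

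**Figure D4:**
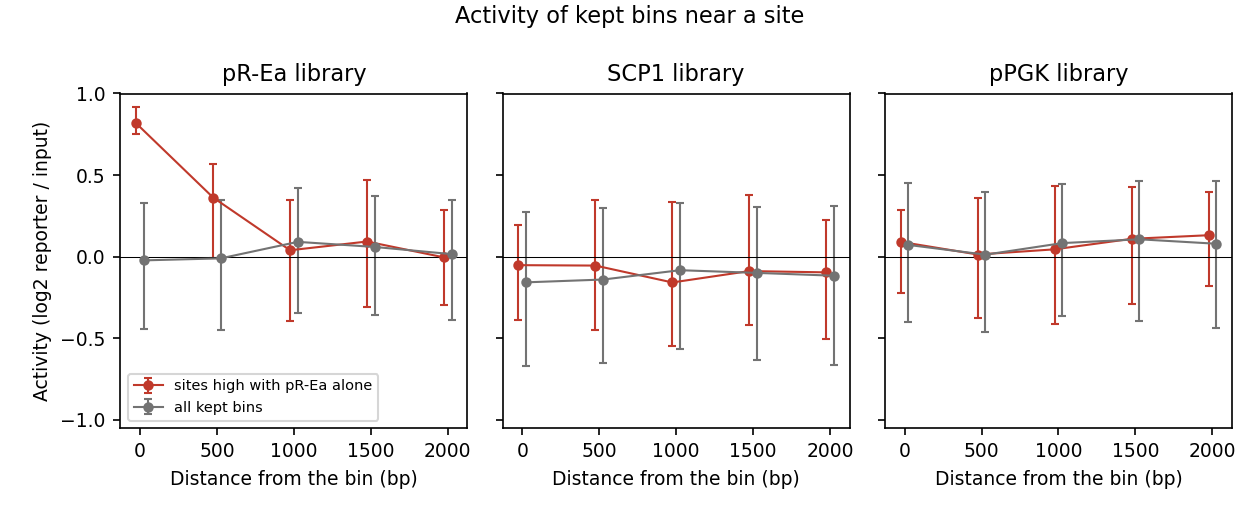
Median activity (vertical axis, log2 reporter over input, bars are quartiles) of kept bins by their distance from a chosen site (red) or from any kept bin (grey), in the pR-Ea, SCP1 and pPGK libraries. With pR-Ea the red median is 0.36 at 500 bp and 0.04 at 1000 bp, while the SCP1 and pPGK medians stay near those of all kept bins.

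Sites high with 1 other promoter, chosen by the same rule with the promoters exchanged, showed neighbours of a similar kind. The 440 neighbours of the 811 sites high with SCP1 alone had a median of 0.23 with SCP1, but they also had 0.19 with pPGK. The 527 neighbours of the 1584 sites high with pPGK alone had 0.30 with pPGK. In their own library the neighbours of pR-Ea sites were thus at a median of 0.36, those of SCP1 sites at 0.23 and those of pPGK sites at 0.30. The kept bins that adjoin any kept bin were at -0.01 with pR-Ea, -0.14 with SCP1 and 0.01 with pPGK, and the difference between promoters was not tested. In pPGK PMA_I the 3 sets of sites differed widely, with medians of 0.23 for pR-Ea, 0.39 for SCP1 and 1.25 for pPGK, the last of which shares its promoter and its input with that library.

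Most chosen sites did not adjoin another chosen site. They formed 890 single bins, 37 pairs and 3 runs of 3 adjoining sites. No kept bin adjoined 414 of the 973 sites, against 14590 of the 30946 kept bins, so these could not form a run. The share of single bins was not computed for other sets, so nothing is read about clustering. A kept bin adjoined 559 of the chosen sites (57.5%), against 52.9% of all kept bins. Of the chosen sites 185 (19.0%) lay in a stretch of 3 or more kept bins, against 14.0%. Of the sites high with SCP1 alone and with pPGK alone, 16.2% and 7.89% lay in such a stretch.

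The longest run with the most reads was chr1:42753501-42755000, in a stretch of 5 kept bins. Its 3 sites had pR-Ea activities of 0.70 (SE 0.10), 0.99 (SE 0.04) and 0.92 (SE 0.04). The middle site held 14663 reporter and 2725 input reads with pR-Ea, against 7969 and 6408 with SCP1 and 5635 and 2118 with pPGK. SCP1 gave 0.21 (SE 0.26), -0.03 (SE 0.09) and -0.25 (SE 0.13) over the 3 sites, and pPGK gave 0.11 (SE 0.26), 0.16 (SE 0.08) and -0.16 (SE 0.11). With distinct positions in place of reads the gap was -0.15 at the second site and -0.09 at the third. Their pR-Ea reads lay on 313 and 340 reporter and 258 and 271 input positions. The same limit of position counts may apply, and the cause was not tested. The fourth bin, chr1:42755001-42755500, had 0.66 (SE 0.08) with pR-Ea, 0.16 (SE 0.13) with SCP1 and -0.09 (SE 0.16) with pPGK. The fifth bin, chr1:42755501-42756000, had 0.47 (SE 0.05) with pR-Ea, 0.65 (SE 0.08) with SCP1 and 0.51 (SE 0.09) with pPGK. The pR-Ea value was the highest of the 3 promoters in the first 4 bins and the lowest in the last. Its interval over positions overlapped those of both other promoters in the first and last bins.

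The run at chr15:39028501-39030000 had 0.74 (SE 0.14), 0.75 (SE 0.13) and 0.84 (SE 0.07) with pR-Ea. SCP1 gave 0.16 (SE 0.32), -0.21 (SE 0.27) and 0.16 (SE 0.16), and pPGK gave -0.21 (SE 0.53), -0.14 (SE 0.34) and -0.07 (SE 0.21). In the last bin of that stretch, chr15:39030501-39031000, pR-Ea was at 0.24 (SE 0.08), below SCP1 at 0.77 (SE 0.18), with pPGK at 0.26 (SE 0.24). The run at chr8:90723501-90725000 had 0.82 (SE 0.14), 0.73 (SE 0.12) and 0.86 (SE 0.22) with pR-Ea. There pPGK gave -0.16 (SE 0.36), -0.29 (SE 0.18) and 0.42 (SE 0.17), so the third site was close to the limit of 0.5. It had 0.81 (SE 0.17) in pPGK PMA_I.

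**Figure D5:**
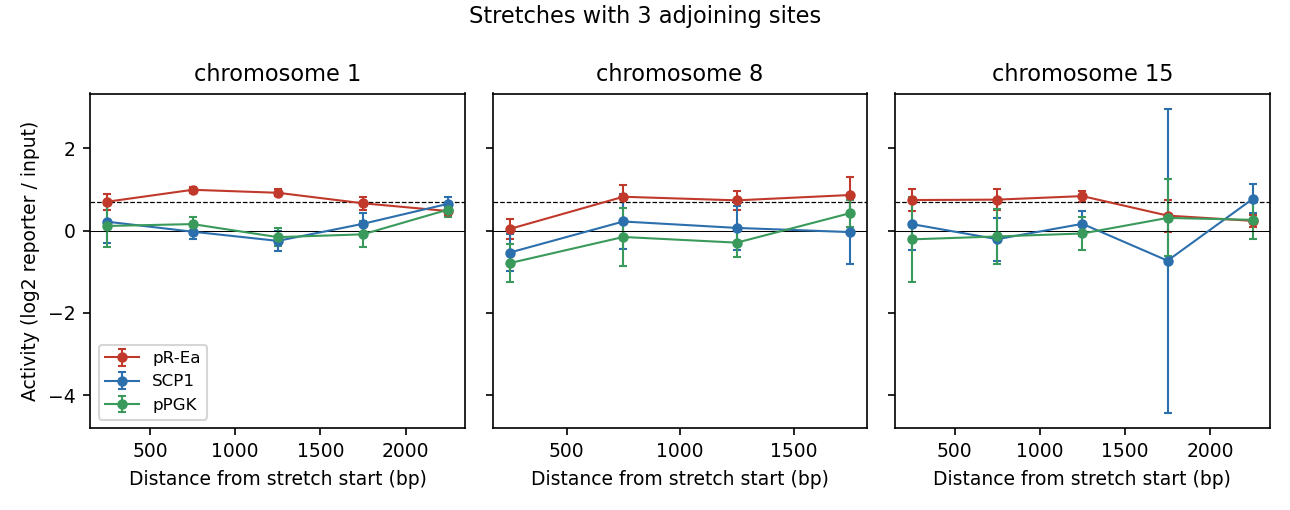
Activity (vertical axis, log2 reporter over input, bars of 1.96 SE over positions) with pR-Ea, SCP1 and pPGK along the stretches of kept bins that hold 3 adjoining chosen sites, by distance from the start of the stretch. On chromosome 1 the pR-Ea point is the highest at the 3 chosen sites and the lowest in the last bin, and its bar overlaps both others in the first and last bins.

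Activity with pR-Ea was alike on both strands, but the strands may share molecules there. Of the 973 sites, 880 had at least 25 pR-Ea input reads on each strand, at positions listed on 1 strand. Their median activity was 0.82 on the plus and 0.83 on the minus strand. Of these sites 686 (78.0%) reached 0.7 on both strands, against 1298 of 26208 kept bins (4.95%) with as many reads. The rule used the pR-Ea reads that are split here, so these values are a description. The median difference in size between strands was 0.06 with pR-Ea at the chosen sites, against 0.11 over all kept bins with as many reads. With pPGK the strands differed by 0.88 at the 698 chosen sites with enough reads, against 0.63 over all such kept bins. With SCP1 the difference was 0.11 at 942 sites, against 0.17. At 131 of the 698 sites pPGK had at least 0.7 on 1 strand, against 4982 of 21725 kept bins and 1444 of 14872 of the other low bins. At chr5:113303001-113303500, for example, pR-Ea gave 0.83 on the plus and 0.86 on the minus strand, while pPGK gave 1.04 and -1.09. At site 2 plus and minus input reads were 134 and 145 with pR-Ea, 504 and 384 with SCP1, and 54 and 364 with pPGK. At site 4 they were 191 and 191, 1146 and 1125, and 138 and 141. If both ends of each molecule were read in the pR-Ea and SCP1 libraries, the strands would share molecules there, which was not tested. Likeness of the strands is therefore not read as independence of orientation, nor its contrast with pPGK as a property of the sites.

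Among pPGK reads, poorly mapped ones made up a smaller share at the chosen sites than over all kept bins. The pR-Ea and SCP1 data start at a score of 30, so this share is not known for them. Reads with a mapping quality score under 30, which the rule left out, made up more than 10% of pPGK reads at 161 of the 973 sites (16.5%). The share of such bins was 24.2% of the sites high with SCP1 alone, 28.2% of those high with pPGK alone and 29.9% of all kept bins. It was 31.6% of the other bins below 0.5 with SCP1 and pPGK. The median share of low-score reads was 0.346% at the chosen sites and 1.78% over all kept bins. The chosen sites were spread over all numbered chromosomes and X. Among these chromosomes, with unplaced sequence left out, their share of kept bins was lowest on chromosome 18, with 21 of 964 bins (2.18%), and highest on chromosome 13, with 46 of 1223 (3.76%).

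The count of chosen sites depended on counting reads. With distinct positions in place of reads, in the same bins, the rule gave 192 sites, of which 53 were among the 973. Where each position holds many reads this count may not follow the reads, and the cause of the lower number was not tested. Without the position with the most reporter reads in each bin, 918 sites were chosen, of which 757 were among the 973.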

How the data were processed

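The series has 7 samples in 7 groups of 1 library, of which the 4 reporter libraries have processed files. The authors worked with build mm9, Bowtie2, bedtools 2.28.0 and SAMtools, per the submitters' processing notes. In what order is not given in the sources used here. Deposited files list 315 bp fragments with a mapping quality score (column 5) and whole-number counts (columns 7 and 8). Column 7 was read as reporter and column 8 as input, from the values. The lowest deposited score was 30 in the pR-Ea and SCP1 files and 0 in both pPGK files, so lines of at least 30 were used. A 5' end listed on both strands was counted once, on its plus-strand fragment.

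Reads were summed over 500 bp bins, with a pseudocount of 1 in the ratio. Coordinates start at 1. Intervals are exact 95% (Clopper-Pearson) over reads; the SE treats positions as independent. Both cover no variation between cultures. Depth per library is given with the results. The code was tested on simulated data. Python 3.11.15, numpy 2.4.6, pandas 2.3.3 and scipy 1.17.1 were used.

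The sites and lists were chosen with earlier results of these data known. Sites are named by this rule: the 8 with the largest gap at 200 or more input reads per promoter, the 5 with the most pR-Ea input reads, the 4 highest and 4 lowest in pPGK PMA_I, the 2 nearest the threshold on each side, and the longest runs. Genes and sequences are not given, since the annotation used here is of another build.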

Additional observations from a re-analysis of the deposited data

Results flagged for a closer look

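Some chosen sites were above the average site with pR-Ea and at least 2-fold below it with another promoter, and this difference was not tested. With SCP1 there were 67 such sites (6.89%), against 15.0% of all kept bins. The share was 20.9% in the other bins below 0.5 with SCP1 and pPGK. The 67 sites had a median activity of 0.82 with pR-Ea, -1.33 with SCP1 and -0.21 with pPGK. With pPGK there were 24 (2.47%), against 9.72% of all kept bins and 14.0% of those other low bins. These sites had a median of 0.82 with pR-Ea, -0.42 with SCP1 and -1.27 with pPGK. In pPGK PMA_I these 24 sites were all below 0, against 10866 of the 30946 kept bins, and 11 were at -1 or less, against 7.70% of all kept bins. That library shares its input and its promoter with pPGK.

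At 5 sites both SCP1 and pPGK were at least 2-fold below. Sites 1 and 3 are among them. The others, named after their values were seen, were chr2:26998001-26998500, chr14:77557001-77557500 and chr9:62999001-62999500. They had 0.73 (SE 0.13), 0.94 (SE 0.14) and 0.74 (SE 0.21) with pR-Ea, -1.73 (SE 0.28), -1.43 (SE 0.29) and -1.21 (SE 0.57) with SCP1, and -2.65 (SE 0.54), -1.04 (SE 0.57) and -2.38 (SE 0.42) with pPGK. The lowest SCP1 value was at chr3:82680001-82680500, which had 407 reporter and 79 input reads with pR-Ea, against 0 and 54 with SCP1. The upper end of its exact 95% counting interval for SCP1 activity was -4.16.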

How the results depend on the processing

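Of 90 recomputed values of the 6 main results, 46 kept their direction and stayed within a tolerance. The tolerance was 1.5 times for a count, so that 195 sites at 0.7 or more in pPGK PMA_I with every listed line counted fell on its edge. For a median it was the 95% interval of the median over bins. Causes of the changes below were not tested unless the setting itself gives fewer or more bins. The number of chosen sites was 1772 at a minimum of 20 input reads, 328 at 200, 192 with distinct positions, 128 at a pR-Ea activity of at least 1, and 268 with SCP1 and pPGK below 0. The median activity in pPGK PMA_I was 0.3146 at 200 input reads, 0.4867 with no score filter, 0.3393 with every listed line counted, 0.109 with distinct positions and 0.2742 at a pR-Ea activity of at least 1. It changed sign to -0.0223 where no file could list a position under 30, to -0.0361 with the median of all bins set to 0, and to -0.0586 with SCP1 and pPGK below 0.

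The number of sites at 0.7 or more in pPGK PMA_I was 79 with a pseudocount of 10, 346 at 20 input reads, 38 at 200, 256 with no score filter, 45 with no position under 30 in any file, 57 with the median set to 0, 8 with distinct positions, 18 at a pR-Ea activity of at least 1, and 2 with SCP1 and pPGK below 0. The median difference between pPGK PMA_I and pPGK was 0.1785 with a pseudocount of 10, 0.2755 at 20 input reads, 0.1921 at 200, 0.4033 with no score filter, 0.3298 with every line counted, 0.0172 with the median set to 0, 0.0964 with distinct positions, 0.2558 at a pR-Ea activity of at least 1 and 0.2768 with SCP1 and pPGK below 0. It changed sign to -0.0348 with no position under 30 in any file.

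The median pR-Ea activity of neighbours was 0.2926 at 20 input reads, 0.4405 at 200, 0.2474 in bins of 1000 bp, 0.2663 with distinct positions and 0.4482 at a pR-Ea activity of at least 1. The number of sites with the lowest input share was 204 with a pseudocount of 10, 617 at 20 input reads, 71 at 200, 127 with no score filter, 126 with distinct positions, 55 at a pR-Ea activity of at least 1 and 101 with SCP1 and pPGK below 0.

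Of 327 recomputed gaps of 31 named sites, 290 moved by less than 0.2, 29 moved by more and 8 changed sign. With distinct positions 20 of the 31 gaps moved by more, those of sites 1 to 8 among them. The 8 that changed sign all did so with distinct positions. These were -0.3093 at chrX:6952501-6953000, -0.2576 at chr5:113303001-113303500, -0.137 at chr4:106584501-106585000, -0.2086 at chr13:58228501-58229000, -0.2076 at chr10:42894001-42894500, -0.2317 at chr5:120575501-120576000, -0.1469 at chr1:42754001-42754500 and -0.0924 at chr1:42754501-42755000. Placing shared 5' ends on the minus-strand fragment, chosen after seeing the data, gave 960 sites, of which 876 were among the 973. No paired analysis was possible because each group is 1 library. For the same reason no replicate could be left out.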
